A study of Mus musculus with 10 samples.

Results

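Hematopoietic stem cells (HSCs) of C57BL/6 mice labelled as Id1 knockout (KO) were compared with wild-type (WT) HSCs in the condition labelled stressed, with 2 RNA-sequencing libraries of each genotype, A and B. The HSCs had been purified by flow sorting from the bone marrow of primary recipients of lineage-depleted Id1-/- or Id1+/+ marrow. The labels place the harvest 4 weeks after transplantation and the series design 6 weeks, and neither defines stressed or normal. The genotype belongs to the transplanted cells, and the genotype of the recipients is not given. The labels also do not say whether A and B were separate mice, pools or portions of 1 sample, so every p-value measures only the spread between these libraries. Of 20270 genes in the deposited table, 14043 had a value above 0 on the log2 scale of CPM (counts scaled to the same library total) in at least 2 of the 4 stressed libraries and were kept. A further condition, a mean above 4 over the 4 libraries, selected 9014 well expressed genes, and 5029 of the kept genes lay below it. KO and WT libraries of the condition labelled normal (3 of each, same strain, donor genotypes and time) served to estimate the spread and for a comparison side by side.

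HSCs are the rare marrow cells that can rebuild all blood lineages, and most of them rest outside the cell cycle until infection, blood loss or transplantation calls on them. Id1 is a helix-loop-helix protein without a DNA-binding region. It pairs with E proteins, transcription factors that bind E box sequences, and so keeps them from activating their targets. In HSCs, Id1 is known as a gene induced by cytokines and by bone morphogenetic protein signals.

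Id1 itself (chromosome 2, 152736251 to 152737410, plus strand, mm10) did not follow the labels. Its level was 3.18 log2 CPM in library A and 3.08 in library B of the KO-labelled stressed cells, and 0.36 and 2.13 in those of the WT-labelled cells. Both KO-labelled libraries thus lay above both WT-labelled libraries, by 1.88 on average (SE 0.55, limma adjusted p = 0.33). In normal HSCs the KO-labelled libraries were 2.50 higher (SE 0.45, limma adjusted p = 0.018), and there Id1 was called. Counts summed over a whole gene leave the position of the reads unknown, so they cannot check the deletion. Genotypes are therefore named by label throughout, and each direction is that of the KO-labelled minus the WT-labelled libraries.

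All 4 libraries held the transcripts by which HSCs are recognised. The transcription factor gene Hlf stood at 8.19, 8.16, 8.33 and 8.40 (KO A, KO B, WT A, WT B, an order kept below), and Mecom at 7.60, 7.54, 7.53 and 7.82. Hoxb5 was low in all 4 libraries, from 2.72 to 3.14. Levels are not corrected for transcript length, so they are compared between libraries and not between genes.

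Both KO-labelled stressed libraries also held immunoglobulin transcripts that were nearly or fully missing from the WT-labelled ones. The constant gene Igkc stood at 129.7 and 136.0 CPM in KO A and B, at 0.416 CPM in WT A and at 0 reads in WT B. Ighg2b (109.4 and 127.8 CPM) and Igha (68.1 and 69.95 CPM) were without reads in WT A and WT B. Variable (V) genes, of which a B-lineage cell rearranges and transcribes only a few, were also present. Of 18 V genes in the table, 5 exceeded 1 CPM in both, and all 5 had 0 reads in both of the WT-labelled libraries. Ighv6-4 exceeded 1 CPM in KO A alone, at 1.22 CPM against 0.793 in KO B, 0.863 in WT A and 0.667 in WT B. Of the V genes of lower level, 4 had reads in only 1 of the KO-labelled libraries, at 0.533 CPM or less.

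Those 5 V genes had nearly the same level in KO A and KO B. Igkv1-110 stood at 57.8 and 58.9 CPM, Igkv8-30 at 29.9 and 31.4, Ighv1-63 at 29.7 and 33.4, Ighv1-22 at 17.7 and 22.4, and Iglv1 at 6.57 and 6.66. On the log2 scale the libraries differed by 0.02 to 0.34 over these genes. In the 6 normal libraries none of them exceeded -2.29 on the log2 scale. Whether KO A and KO B hold cells of the same mouse is not stated in the labels and was not tested.

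**Figure D1:**
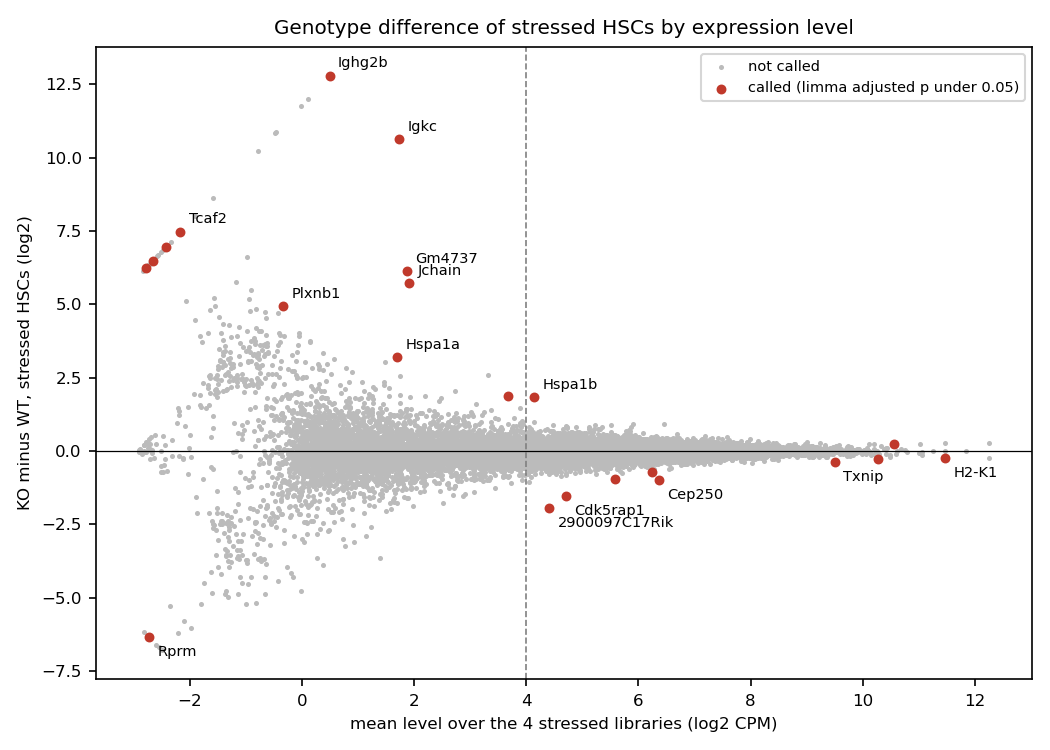
Each point is 1 of 14043 genes, with its mean level over the 4 stressed libraries (log2 CPM) on the horizontal axis and the difference KO-labelled minus WT-labelled (log2) on the vertical axis. The dashed line marks a mean of 4, and the 22 genes called are in red. Differences were widest below the line, while above it 4 of 9014 genes differed by more than 1.

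Few well expressed genes were called between the genotypes. Of 15143 genes tested by limma over all 10 libraries, 22 were called (0.145% of genes tested; adjusted p under 0.05), 13 higher in KO-labelled cells (0.0858%) and 9 lower (0.0594%). Among the 9014 well expressed genes 10 were called (0.111%), 2 higher (0.0222%) and 8 lower (0.0888%). In all 22 the groups did not overlap, and in 6 of the 22 a genotype had 0 reads in both of its libraries.

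The median difference of the well expressed genes was 0.001 (log2), and the central 90 percent lay between -0.34 and 0.33. The median absolute difference was 0.12 between the genotype means, 0.13 between the single libraries KO A and KO B and 0.14 between WT A and WT B. A mean over a pair of libraries varies less than a single library, so these values do not show whether the genotypes differed more than replicates. A difference above 0.5 in size was present in 250 genes (2.77%) and one above 1 in 4 genes (0.0444%). The median SE fell with level, from 0.19 for 4431 genes with means from 4 to 6 to 0.12 for 3943 genes from 6 to 8 and 0.07 for 600 genes from 8 to 10.

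Of 40 genes with a mean above 10, 22 had exactly the same value in both libraries of a genotype. The deposited values had been set to 1 common distribution by rank, so equal ranks give equal values, and the SE of such genes is too small. Groups that did not overlap, with both KO-labelled libraries above or both below the WT-labelled ones, were found in 41.3% of well expressed genes, 20.5% higher and 20.8% lower. Counts of members in gene lists are read against these shares, since few list members were called. The shares cover genes with a mean above 4 alone, and none was taken for genes of lower level.

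Of the 10 well expressed genes called, 2 were higher in KO-labelled stressed HSCs, Hspa1b and Cnbp. Hspa1b encodes the inducible heat shock chaperone HSP70 and stood at 4.85, 5.26, 3.69 and 2.74, 1.84 higher on average (SE 0.30, limma adjusted p = 0.049). The WT-labelled libraries were both lower, and they were nearly 1 log2 unit apart. Cnbp, which encodes a nucleic acid-binding zinc finger protein, had 10.68 in both KO-labelled and 10.44 in both WT-labelled libraries (difference 0.23, limma adjusted p = 0.049).

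Of the 8 lower genes, 4 lie away from Id1. H2-K1, a class I histocompatibility gene whose product presents peptides to T cells, had 11.35 in both KO-labelled and 11.60 in both WT-labelled libraries (difference -0.25, SE 0.02, limma adjusted p = 0.0014). Its values were tied within each genotype, as were those of Cnbp, so the SE of both genes is too small. Txnip, an inhibitor of thioredoxin that also limits glucose uptake, stood at 9.35, 9.27, 9.71 and 9.67 (difference -0.38, SE 0.05, limma adjusted p = 0.0067). Mvp, which encodes the main protein of vault particles, stood at 5.99, 5.79, 6.50 and 6.73 (difference -0.72, SE 0.12, limma adjusted p = 0.049). In each of these the KO-labelled libraries lay together below the WT-labelled ones. Rsrp1, a gene for an arginine and serine rich protein, had 10.14 in both KO-labelled libraries against 10.40 and 10.42 (difference -0.28, limma adjusted p = 0.040).

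The other 4 lower genes lie on chromosome 2 near Id1. Cep250, a centrosome gene, stood at 5.90, 5.83, 6.79 and 6.93 (difference -0.99, limma adjusted p = 0.0037). Cdk5rap1, for a mitochondrial tRNA-modifying enzyme, stood at 3.65, 4.24, 5.65 and 5.31 (difference -1.54, limma adjusted p = 0.029). The unnamed gene 2900097C17Rik stood at 3.70, 3.16, 5.30 and 5.47 (difference -1.96, limma adjusted p = 0.0037). These 3 genes showed separations of about 1 log2 unit or more, larger than those of the other well expressed genes called outside the region, apart from Hspa1b.

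The remaining member, Ahcy, encodes the enzyme that clears S-adenosylhomocysteine, and it stood at 5.10, 5.11, 6.11 and 6.02 (difference -0.96, limma adjusted p = 0.025). Its near-identical copy Gm4737 on chromosome 16 stood at 4.94, 4.92, -1.15 and -1.24, in the opposite direction. Summed over both copies the values were 65.1, 64.7, 69.3 and 65.4 CPM, a difference of -0.05 on the log2 scale. The copies thus differed in opposite directions, and the sums lay between 64.7 and 69.3 CPM in all 4 libraries.

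**Figure D2:**
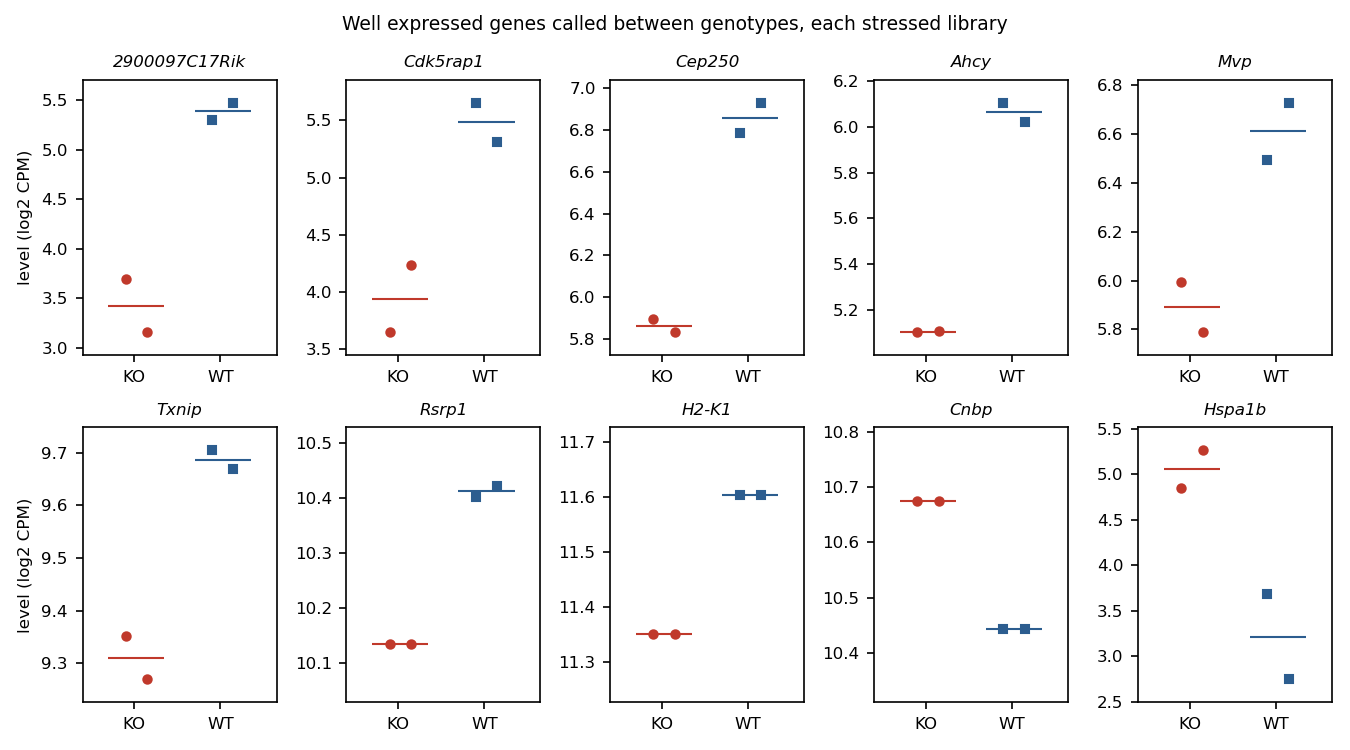
Each panel shows 1 of the 10 well expressed genes called between genotypes, with the level of each stressed library (log2 CPM, vertical axis scaled to the gene) for KO-labelled (red circles, A left, B right) and WT-labelled cells (blue squares) and a line at the group mean. In all 10 genes the groups were apart, and H2-K1 and Cnbp had a single value per genotype.

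Within 5000000 bases of Id1 lay 79 well expressed genes, of which 4 were called, while 10 of all 9014 well expressed genes were called (0.111%). In that stretch 17 genes stood above and 22 below the WT-labelled libraries without overlap, against 20.5% and 20.8% of all well expressed genes. The distances from Id1 were 1597970 bases for Cdk5rap1, 2321900 for Ahcy, 3219048 for Cep250 and 3650655 for 2900097C17Rik. Epb41l1, at 3683499 bases, was the only gene of the stretch called higher (4.37, 4.85, 3.06 and 2.41, difference 1.87, limma adjusted p = 0.036), with a mean below the limit of 4. Mcts2, whose end lies at -48305 bases from Id1, stood at 3.39, 3.37, 1.60 and 1.58 (difference 1.79, limma adjusted p = 0.10). The part of their position in these differences was not tested.

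Hspa1a and Hspa1b, adjacent copies on chromosome 17, were the only heat shock genes called among 25 kept members of the list, and their upstream sequences are shown because both copies were called in the same direction. The windows span the 250 bases before the RefSeq start (GRCm38.p6, minus strand), chr17:34972157-34972406 for Hspa1a and chr17:34959239-34959488 for Hspa1b. Capitals mark GAANNTTC, the core of the heat shock element bound by heat shock factor 1.
Hspa1a: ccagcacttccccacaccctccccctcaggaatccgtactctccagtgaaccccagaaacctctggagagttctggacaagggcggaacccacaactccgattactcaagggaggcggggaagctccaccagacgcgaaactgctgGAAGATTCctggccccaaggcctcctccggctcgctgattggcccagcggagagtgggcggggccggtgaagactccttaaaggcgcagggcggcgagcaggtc
Hspa1b: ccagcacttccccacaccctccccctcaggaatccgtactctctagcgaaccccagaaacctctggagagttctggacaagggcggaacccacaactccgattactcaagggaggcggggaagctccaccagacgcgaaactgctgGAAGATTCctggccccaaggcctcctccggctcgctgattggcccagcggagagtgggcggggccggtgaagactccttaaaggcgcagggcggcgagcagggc
The windows were identical at 247 of 250 bases (98.8%), and the motif began at position -104 in both. GAANNTTC, searched on both strands, was present in 6.694% of 32851 promoter windows of the genome and in 5 of the 23 windows (21.74%) matched for 17 of the 21 well expressed heat shock genes.

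Hspa1a stood at 3.37, 3.22, -0.04 and 0.24 (difference 3.19, SE 0.35, limma adjusted p = 0.0037). Since reads can be divided between copies, both were also summed, which gave 39.1, 47.7, 13.8 and 7.88 CPM and a difference of 2.05 on the log2 scale. Both KO-labelled sums exceeded both WT-labelled ones by more than 2-fold. In normal HSCs Hspa1a differed by 0.39 and Hspa1b by 0.40, and neither was called. The tests of stressed minus normal differences gave limma adjusted p = 0.075 for Hspa1a and 0.27 for Hspa1b.

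Other chaperone genes did not share this separation. Of 21 well expressed heat shock members, 2 stood above without overlap (9.52%) and 2 below (9.52%), with a median of 0.05. Hsph1, an HSP110 co-chaperone gene, stood at 6.49, 6.66, 6.98 and 6.89 (difference -0.36, limma adjusted p = 0.50). Hspa2, another HSP70 gene, stood at 3.60, 3.66, 4.74 and 4.12 (difference -0.80, limma adjusted p = 0.33). In the list of the unfolded protein and ATF4 response, 3 of 22 stood above and 7 below (31.8%). The endoplasmic reticulum chaperone gene Hspa5 was among the higher ones, at 9.67, 9.58, 9.43 and 9.46 (difference 0.18, limma adjusted p = 0.26), and Ddit3, for the stress transcription factor CHOP, among the lower (3.93, 4.08, 4.55 and 4.53, difference -0.53, limma adjusted p = 0.52).

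Genes of mitosis stood higher in KO-labelled stressed HSCs as a list, although no member was called. Of 33 well expressed G2/M genes, 20 (60.6%) had both KO-labelled libraries above both WT-labelled ones and 1 (3.03%) below, against 20.5% and 20.8% of all well expressed genes. The median difference was 0.16, and 31 of 33 differences were positive. The smallest limma adjusted p of the list was 0.37.

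Bub1, a kinase of the spindle checkpoint, stood at 5.96, 5.78, 5.39 and 5.36 (difference 0.49, SE 0.15). Aurka, the centrosomal Aurora kinase gene, stood at 6.11, 6.15, 5.78 and 5.55 (difference 0.47, SE 0.16). Ccnb1, for the mitotic cyclin B1, stood at 7.02, 6.83, 6.28 and 6.63 (difference 0.47, SE 0.18). The WT-labelled libraries were lower in all 3, and the gap between the groups, from the lower KO-labelled to the higher WT-labelled library, was narrowest in Ccnb1. Plk1, the Polo-like kinase gene, was the exception, at 5.85, 5.81, 6.01 and 5.95 (difference -0.15). Kif15, a spindle motor gene outside the list, stood at 6.41, 6.12, 5.30 and 5.63 (difference 0.80, limma adjusted p = 0.18).

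Many mitotic genes carry CCAAT boxes, the binding sequence of the factor NF-Y, close to their start, and those of Bub1, Aurka and Ccnb1 are printed because these genes were among the members with the largest differences. The windows lie on the minus strand at chr2:127831860-127832109, chr2:172370571-172370820 and chr13:100786487-100786736 (GRCm38.p6). Capitals mark CCAAT, or ATTGG where it lies on the other strand.
Bub1: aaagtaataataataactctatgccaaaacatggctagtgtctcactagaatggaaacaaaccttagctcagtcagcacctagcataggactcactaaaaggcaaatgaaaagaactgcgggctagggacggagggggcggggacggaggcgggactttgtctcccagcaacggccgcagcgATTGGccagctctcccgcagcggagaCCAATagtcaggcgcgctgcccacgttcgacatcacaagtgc
Aurka: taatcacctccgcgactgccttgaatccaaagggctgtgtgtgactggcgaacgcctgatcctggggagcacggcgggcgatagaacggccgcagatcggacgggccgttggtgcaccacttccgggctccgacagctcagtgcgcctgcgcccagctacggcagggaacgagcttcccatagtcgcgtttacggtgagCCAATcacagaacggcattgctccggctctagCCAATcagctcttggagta
Ccnb1: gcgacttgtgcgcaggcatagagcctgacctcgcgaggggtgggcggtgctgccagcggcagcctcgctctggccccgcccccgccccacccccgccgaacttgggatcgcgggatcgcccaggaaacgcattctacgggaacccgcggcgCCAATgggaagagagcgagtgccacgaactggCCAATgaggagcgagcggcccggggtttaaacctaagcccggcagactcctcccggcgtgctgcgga
Each window held 2 copies, at -68 and -42 in Bub1, at -51 and -19 in Aurka and at -99 and -67 in Ccnb1. Of 28 windows matched for 26 of the 33 G2/M genes, 23 (82.14%) held CCAAT on either strand. The share was 33.85% of all 32851 windows and 61.29% of the 31 windows of G1/S genes.

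G1/S and replication genes had the same direction with smaller differences. Of 35 well expressed members, 15 (42.9%) stood above and 2 (5.71%) below, with a median of 0.10 and 29 positive differences. Ccne2, the cyclin E2 gene of S phase entry, stood at 5.51, 5.53, 4.23 and 5.19 (difference 0.81, SE 0.27). Cdc45, part of the replicative helicase, stood at 5.91, 5.91, 5.45 and 5.59 (difference 0.39, SE 0.12). Ccne2 depended on WT A, which lay about 1 log2 unit below WT B. The checkpoint kinase gene Chek1, from the DNA repair list, stood at 6.08, 5.83, 5.06 and 5.11 (difference 0.87, SE 0.20, limma adjusted p = 0.23), and 7 of the 26 members of that list stood above (26.9%).

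In normal HSCs the median genotype differences of the G2/M and G1/S lists were 0.04 and 0.01, against 0.16 and 0.10 in stressed HSCs. No member of either list had a difference between conditions called by limma. With 1 stressed library left out at a time, 22 to 27 of the 33 G2/M genes stood above, when 34.0% to 36.2% of all well expressed genes did so.

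Genes that mark HSC identity tended to the opposite side. Of 28 well expressed members, 13 (46.4%) had both KO-labelled libraries below both WT-labelled ones and 2 (7.14%) above, with a median of -0.10 and no call. Procr, the surface receptor used to enrich HSCs, stood at 5.86, 6.08, 6.71 and 6.50 (difference -0.63, SE 0.14, limma adjusted p = 0.18). Prdm16, a transcription factor gene needed for HSC maintenance, stood at 5.43, 5.62, 5.95 and 6.13 (difference -0.51, SE 0.13). Esam, an adhesion molecule of HSCs, stood at 7.21, 7.37, 7.55 and 7.62 (difference -0.30, SE 0.10). The groups were apart in each, and Procr lies within the stretch around Id1.

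Other identity genes did not separate or went the other way. Ndn, a growth suppressor linked to HSC quiescence, stood at 4.81, 4.94, 4.52 and 4.01 (difference 0.61, SE 0.21). Mecom, Meis1 and Slamf1 differed by -0.10, -0.04 and -0.03, with overlapping libraries in each. In these bulk libraries fewer cells of a kind and less RNA per cell cannot be told apart. The median of the identity list was -0.12 in normal HSCs, a similar value.

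The quiescence list gave 5 of 17 well expressed members below (29.4%) and 2 above (11.8%), with Txnip as the only call. Cdkn1b, for the cell cycle inhibitor p27, stood at 3.71, 4.28, 4.84 and 4.76 (difference -0.80, SE 0.22, limma adjusted p = 0.31). Foxo1, a transcription factor gene of stress resistance, stood at 5.22, 5.32, 5.07 and 5.03 (difference 0.22). The upstream window of Txnip (chr3:96557707-96557956, plus strand, GRCm38.p6) is shown because it holds the carbohydrate response element for which the gene is known. Capitals mark CACGAG, followed after 5 bases by CACGAG again.
Txnip: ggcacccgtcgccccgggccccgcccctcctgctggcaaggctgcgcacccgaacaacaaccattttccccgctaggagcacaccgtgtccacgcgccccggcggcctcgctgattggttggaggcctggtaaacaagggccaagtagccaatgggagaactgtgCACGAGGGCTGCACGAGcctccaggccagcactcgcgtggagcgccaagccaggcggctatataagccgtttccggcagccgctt
This spaced repeat, which began at -85, was present in 1 of 32851 windows. The pattern searched is the known element of Txnip itself, so its rarity says nothing about the call. The E box letters CANNTG were present in 66.22% of all windows and in 2 of 10 windows (20%) matched for 9 of the 10 well expressed genes called.

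Kmt2a and Apoe, outside the lists, were among the 12 uncalled lower genes with the smallest p. Kmt2a, for the histone methyltransferase MLL1, stood at 7.75, 7.64, 8.03 and 8.11 (difference -0.38, SE 0.07, limma adjusted p = 0.10). Apoe, for a lipid carrier, stood at 9.24, 9.24, 9.44 and 9.43 (difference -0.20, SE 0.04, limma adjusted p = 0.14). Acss2, for acetyl-CoA synthesis, stood at 6.19, 6.29, 6.98 and 6.75 (difference -0.63, limma adjusted p = 0.10) and lies 2780538 bases from Id1. Aplp2, Ypel3, Serpinf1, Pygb, Leng8, Gtf2i, Inpp4b, Hid1 and Procr completed that set, with differences from -0.30 to -0.79. Of these, Pygb (at -1904493 bases) and Procr also lie in the stretch around Id1.

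**Figure D3:**
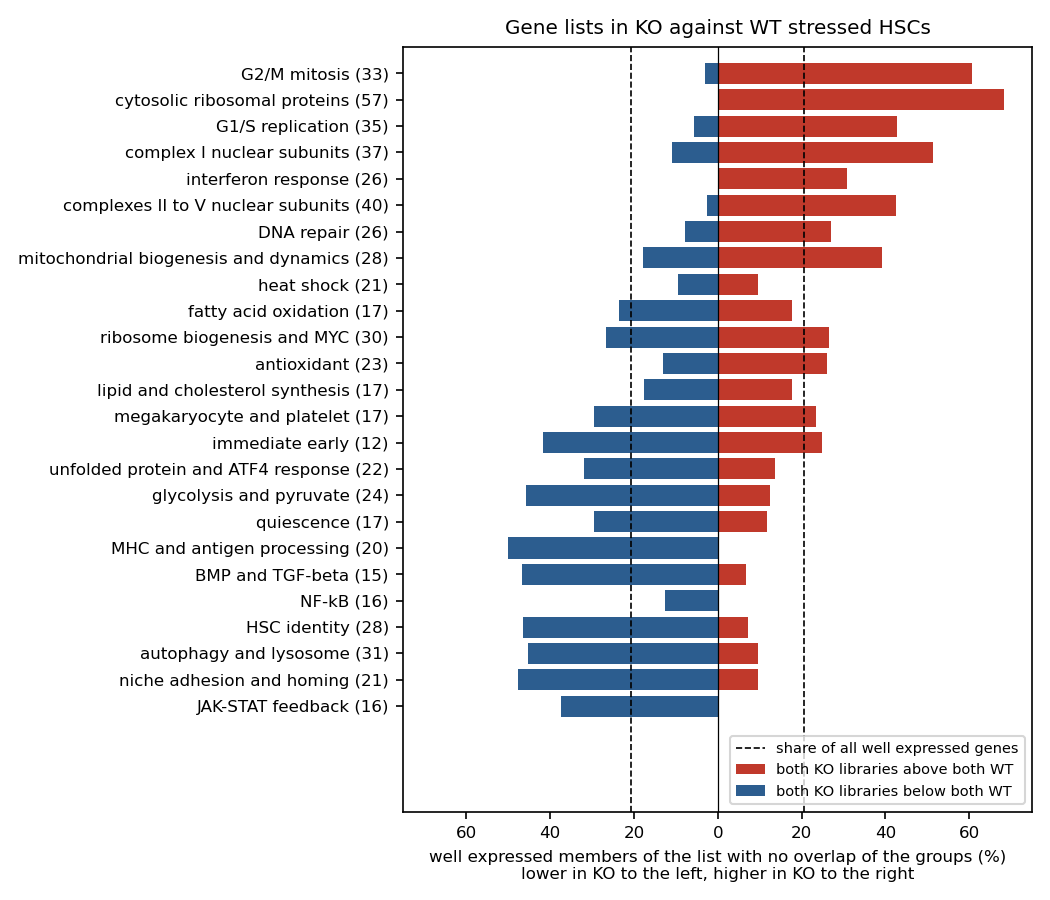
Bars give, for each list with at least 10 well expressed members (number in brackets), the percentage of members whose KO-labelled libraries both lay above (red, right) or both below (blue, left) the WT-labelled ones. Dashed lines mark the shares of all 9014 well expressed genes, 20.5% and 20.8%. The G2/M list reached 60.6% and cytosolic ribosomal proteins 68.4% on the right, and the MHC list 50% on the left.

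Genes of the ribosome stood slightly higher. Of 57 well expressed cytosolic ribosomal protein genes, 39 (68.4%) were above and 0 below, with a median of 0.10 and no call over all genes (smallest limma adjusted p = 0.17, and 15 members, all higher, with an unadjusted p under 0.05, against 4.52% of all well expressed genes). Rpl22 stood at 7.05, 7.15, 6.81 and 6.70 (difference 0.34, SE 0.09), and Rpl34 at 7.41, 7.48, 7.16 and 7.18 (difference 0.27, SE 0.08). Ribosome biogenesis and MYC genes did not lean, with 8 of 30 above and 8 below (26.7% each). Myc itself stood at 8.96, 8.97, 9.12 and 9.16 (difference -0.18, SE 0.06), and its binding partner Max at 5.71, 5.61, 5.97 and 6.20 (difference -0.42).

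Respiratory chain genes leaned the same way. For the nuclear-encoded subunits of complex I, 19 of 37 (51.4%) stood above and 4 (10.8%) below, with a median of 0.09. For complexes II to V, 17 of 40 (42.5%) stood above and 1 (2.5%) below, with a median of 0.07. Ndufa2, of complex I, stood at 6.47, 6.51, 6.01 and 6.12 (difference 0.42, SE 0.11), and Cox7b, of cytochrome oxidase, at 6.91, 6.81, 6.52 and 6.44 (difference 0.38, SE 0.09). Sdha, a complex II subunit and the 1 lower member, stood at 9.09, 9.18, 9.22 and 9.19.

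The medians of these lists were larger in normal HSCs: 0.39 for ribosomal proteins, 0.30 for complex I and 0.33 for complexes II to V. The stressed difference was below the normal one in 56 of 57 ribosomal protein genes, 32 of 37 complex I genes and 37 of 40 genes of complexes II to V. No share of all well expressed genes was taken for these counts. With the length trend removed, calls fell from 236 to 108 in normal HSCs and were 23 against 22 in stressed HSCs. The part of gene length in the normal medians was not tested. No member of the 3 lists had a difference between conditions called by limma. Among 8 well expressed mitochondrially encoded genes, 5 stood above and 1 below (median 0.16 in stressed and 0.50 in normal HSCs). The lower one, mt-Co1 for cytochrome oxidase subunit I, stood at 9.92, 9.97, 10.05 and 10.04, a difference of -0.09 in stressed HSCs against 0.56 in normal HSCs (limma adjusted p of the difference between conditions 0.00024). Its 3 KO-labelled normal libraries hold 1 value by rank, so its SE is too small.

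Glycolysis and pyruvate genes leaned lower, with 11 of 24 (45.8%) below and 3 (12.5%) above, though the median was only -0.04. Pfkm, for muscle-type phosphofructokinase, stood at 6.62, 6.30, 6.82 and 6.76 (difference -0.33, SE 0.12). Hif1a, the hypoxia factor gene, stood at 6.84, 6.62, 6.45 and 6.46 (difference 0.28, SE 0.12). Autophagy and lysosome genes gave 14 of 31 (45.2%) below and 3 (9.68%) above, with a median of -0.11 against 0.00 in normal HSCs. Atg9a, a membrane protein of forming autophagosomes, stood at 5.20, 5.41, 5.98 and 5.85 (difference -0.61, SE 0.16), and Gabarap at 6.86, 6.83, 7.23 and 7.03 (difference -0.28, SE 0.11). Fatty acid oxidation (3 above and 4 below of 17) and lipid synthesis (3 and 3 of 17) were close to the background.

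Antigen presentation genes were lower as a list. Of 20 well expressed members of the MHC list, 10 (50%) stood below and 0 above, with a median of -0.08 and H2-K1 as the only call. That call rests on tied values, for which the SE is too small. H2-M3, a nonclassical class I gene, stood at 5.72, 5.71, 6.06 and 6.07 (difference -0.36, SE 0.14). H2-Aa, of class II, stood at 5.71, 5.82, 6.17 and 5.95 (difference -0.30), and Cd74, the class II invariant chain gene, at 6.59, 6.60, 7.03 and 6.73 (difference -0.28). Class II genes are also markers of dendritic cells and macrophages, and H2-Aa, H2-Ab1 and H2-Eb1 belong to that list. Its 16 genes in the table summed to 290.8, 279.6, 341.2 and 341.9 CPM. This sum includes the class II genes, so it is no separate measure of such cells. Of its 11 genes with a mean of 4 or below, 1 stood above, 2 below and 8 overlapped, with no background share taken. The part of dendritic cells and macrophages in the differences of antigen presentation genes was not tested.

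Interferon response genes did not share that direction, with 8 of 26 (30.8%) above, a share closer to the 20.5% of all well expressed genes, and 0 below (median 0.08). Bst2, for the antiviral protein tetherin, stood at 5.95, 6.15, 5.43 and 5.58 (difference 0.54, SE 0.17, limma adjusted p = 0.40). Irf9, part of the interferon-activated transcription complex, stood at 7.48, 7.37, 7.23 and 7.08 (difference 0.27, SE 0.10). NF-kB genes gave 2 of 16 below and 0 above. Bcl3, a nuclear partner of NF-kB, stood at 3.79, 3.46, 4.59 and 4.47 (difference -0.91, SE 0.22, limma adjusted p = 0.26).

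Cytokine signalling and niche genes leaned lower. In the JAK-STAT list 6 of 16 (37.5%) stood below and 0 above (median -0.12). Ptpn6, for the phosphatase SHP-1, stood at 8.25, 8.25, 8.49 and 8.57 (difference -0.28, SE 0.07), and Socs2, a feedback inhibitor of cytokine receptors, at 5.68, 5.72, 6.14 and 5.91 (difference -0.32, SE 0.13). In the BMP and TGF-beta list, the pathway upstream of Id1, 7 of 15 (46.7%) stood below and 1 (6.67%) above. Tgfbr2, a TGF-beta receptor gene, stood at 6.57, 6.07, 6.66 and 6.69 (difference -0.36), with KO B lower than the other 3 libraries. The transducer gene Smad2 stood above, at 6.58, 6.46, 6.40 and 6.25 (difference 0.20).

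In the niche adhesion and homing list 10 of 21 (47.6%) stood below and 2 (9.52%) above, with a median of -0.11. Pecam1, an adhesion molecule of endothelium and HSCs, stood at 6.02, 6.08, 6.54 and 6.43 (difference -0.44, SE 0.14). The 2 exceptions were integrin genes. Itga4 stood at 7.81, 7.77, 7.47 and 7.40 (difference 0.36, SE 0.09), and Itga6 at 8.03, 8.11, 7.97 and 7.73 (difference 0.23, SE 0.09). None of these adhesion and signalling genes was called (limma adjusted p from 0.26 to 0.72 for those named here).

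The E protein partners of Id1 were close between genotypes. Tcf3, for E2A, stood at 8.06, 8.05, 7.84 and 7.94 (difference 0.17, SE 0.10, limma adjusted p = 0.70). Tcf12, for HEB, stood at 6.55, 6.60, 6.47 and 6.69 (difference 0.00). Of 4 well expressed members of the Id and E protein list, 1 stood above and 0 below.

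Immediate early genes, switched on within minutes of a stimulus, were mixed, with 3 of 12 above and 5 below. Egr1 stood at 5.16, 5.19, 4.50 and 4.91 (difference 0.47, SE 0.15), and Jun at 7.64, 7.63, 7.05 and 7.34 (difference 0.44, SE 0.14). Ier3 stood at 4.58, 4.66, 5.18 and 5.22 (difference -0.59, SE 0.19). Fos, with a mean below 4, stood at 3.93, 3.89, 3.11 and 3.29, a difference of 0.71 in stressed HSCs against -1.77 in normal HSCs.

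Markers of other blood cells were read as sums of lists and by chosen genes, since their transcripts can reach a sorted sample. The 18 genes of the B and plasma cell list in the table summed to 596.3, 590.8, 257.4 and 229.6 CPM. In this list 3 genes were called, all higher: Igkc, Ighg2b and Jchain, which joins immunoglobulin multimers (4.74, 4.79, -1.15 and -0.74, limma adjusted p = 0.0038). Among the stressed libraries each had values above 0 in the KO-labelled ones alone. They were thus kept only through the group where they were high. Igll1, a surrogate light chain gene of B cell precursors, had 0 reads in all 4 libraries. Xbp1, needed by plasma cells but also expressed elsewhere, stood at 7.63, 7.43, 7.67 and 7.46, with overlapping groups. Of the 16 genes of this list with a mean of 4 or below, 7 stood above, 0 below and 9 overlapped, with no background share taken. Sdc1 was among those above, at 3.396, 3.623, 2.997 and 2.311, and the rest of them were Jchain and immunoglobulin genes. The groups also overlapped in Mzb1, Derl3, Tnfrsf17, Prdm1 and Cd79b. Over 24 immunoglobulin genes of the table the sums were 460.6, 497.4, 4.10 and 5.54 CPM in the stressed libraries and between 5.25 and 7.58 CPM in the normal ones. The immunoglobulin excess was thus a property of both KO-labelled stressed libraries and was not found in the KO-labelled normal ones.

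Myeloid genes did not share 1 direction. The 8 well expressed granulocyte and monocyte genes all had negative differences, with 5 below and 0 above (median -0.14). Csf3r, the G-CSF receptor gene, stood at 6.55, 6.75, 7.26 and 6.92 (difference -0.44, SE 0.18). Of the 17 members of lower level, 7 stood above, 3 below and 7 overlapped, with no background share taken at this level. Mpo, for myeloperoxidase, was among the higher ones, at 4.63, 4.59, 2.71 and 1.35 (limma adjusted p = 0.073), and Elane, for neutrophil elastase, at 0.37, 1.13, -1.27 and 0 reads. Ctsg, for cathepsin G, stood at 0.12 and 1.11 in KO-labelled libraries and at 0 reads in both WT-labelled ones. Other granule genes did not follow. Ltf, for lactoferrin, had 0 reads in both KO-labelled libraries against 0.51 and -2.65 (log2 CPM) in WT A and WT B, S100a9 stood lower at -1.58, -1.15, -0.47 and 0.05, and Ngp, Camp and S100a8 overlapped. The whole list of 25 genes summed to 1425, 1427, 1575 and 1524 CPM, lower in the KO-labelled libraries. Calr made up the largest part of these sums, at 611.8, 600.9, 661.8 and 677.6 CPM. It is among the 8 well expressed genes and also in the list of the unfolded protein and ATF4 response, so the sums do not measure myeloid genes alone. The part of other cells in these values was not tested.

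Erythroid and platelet genes showed no common direction. Car1, a carbonic anhydrase of red cell precursors, stood at 6.44, 6.33, 5.84 and 5.69 (difference 0.62, SE 0.11, limma adjusted p = 0.073). The erythroid transcription factor gene Klf1 stood at 4.34, 4.19, 3.86 and 4.11 (difference 0.28, SE 0.22). Pf4, for platelet factor 4, stood at 8.45, 8.48, 8.22 and 8.08 (difference 0.32, SE 0.08), and Gp5, a platelet glycoprotein gene, at 7.10, 6.87, 7.12 and 7.24 (difference -0.20). Megakaryocyte genes gave 4 of 17 above and 5 below. T and NK cell genes summed to 128.4, 132.7, 163.7 and 148.0 CPM, with Cd2 and Trbc2 at 0 reads in all 4 libraries. Nkg7 alone gave 95.98, 95.59, 117.5 and 109.6 CPM of it, so this sum mainly follows 1 gene. Endothelial and stromal genes summed to 370.8, 352.6, 411.3 and 399.9 CPM, with Cdh5 and Pdgfra at 0 reads in all 4. Tie1 made up the largest part, at 239.7, 235.2, 260.5 and 259.6 CPM. Neither sum measures the number of such cells.

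**Figure D4:**
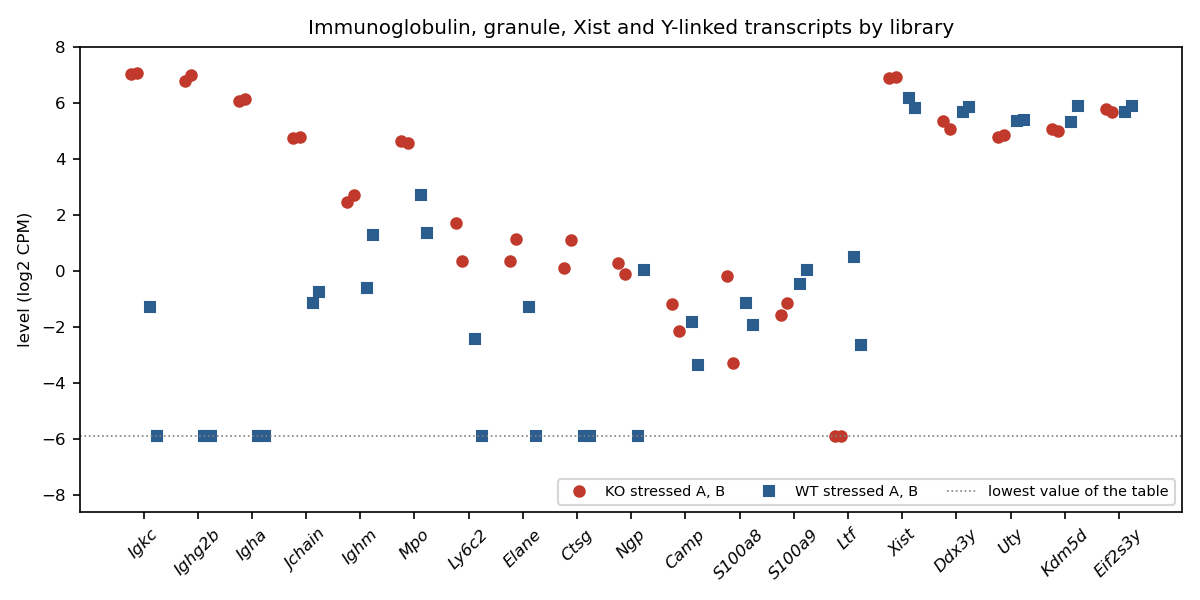
Levels (log2 CPM, vertical axis) of immunoglobulin, granule, Xist and Y-linked genes in KO-labelled (red circles, A then B) and WT-labelled stressed libraries (blue squares, A then B). The dotted line is the lowest value of the table, which stands for 0 reads and where Ighg2b, Igha and Ctsg lie in both WT-labelled libraries and Ltf in both KO-labelled ones.

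Sex-linked transcripts also moved with the genotype labels. Xist, the RNA of the silenced X chromosome in female cells, stood at 6.91, 6.92, 6.19 and 5.80 (difference 0.92, SE 0.16, limma adjusted p = 0.065). The Y-linked genes, looked up after their values were seen, lay on the other side. Uty stood at 4.77, 4.86, 5.37 and 5.40, Ddx3y at 5.36, 5.06, 5.69 and 5.87, and Kdm5d at 5.07, 5.02, 5.32 and 5.88, while Eif2s3y overlapped at 5.77, 5.68, 5.69 and 5.89. Both Xist and Y-linked transcripts were present in every stressed library. Xist differed by -0.19 in normal HSCs. The part of the sex of the cells in the autosomal differences was not tested.

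Genotype differences of stressed and normal HSCs were set side by side. Over the 9014 well expressed genes they had a Pearson correlation of 0.15, a description across genes, which are not independent, in libraries whose values share 1 common distribution. Of 3726 well expressed genes whose stressed groups did not overlap, 2203 had the same sign in normal HSCs. In normal HSCs, with 3 libraries each, limma called 236 of 15143 genes (1.56%), of which 223 were well expressed (2.47%). The difference between conditions was called in 3 of 15143 genes (0.0198%), and 2 of these were well expressed (0.0222%).

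The genes named above within 5000000 bases of Id1 had the same sign in both conditions, with sizes that varied. Apart from Id1, they were named for a call or a small stressed p, and the stretch did not share 1 sign throughout. Map1lc3a, 2538887 bases from Id1, differed by -0.54 in stressed and by 0.13 in normal HSCs. The normal difference was -0.69 for Cep250, against -0.99 in stressed HSCs, -1.11 for Ahcy against -0.96, and -2.48 for 2900097C17Rik against -1.96. It was smaller for Cdk5rap1 (-0.71 against -1.54), Epb41l1 (0.95 against 1.87), Mcts2 (0.70 against 1.79) and Procr (-0.13 against -0.63), with limma unadjusted p of stressed minus normal of 0.016, 0.028, 0.031 and 0.019. Acss2 differed by -0.39 in normal against -0.63 in stressed HSCs, and Pygb by -0.42 against -0.49. None of these genes was called for stressed minus normal (limma adjusted p from 0.42 to 0.92). Gm4737, the copy of Ahcy on chromosome 16, differed by 5.39 in normal and 6.13 in stressed HSCs. Away from Id1, Txnip differed by -0.11 in normal HSCs and Mvp by -0.24, and H2-K1 by -0.13 and Rsrp1 by -0.26, the last pair called (limma adjusted p = 0.0039 and 0.0032). The test of stressed minus normal gave limma adjusted p = 0.21 for Txnip, 0.37 for Mvp, 0.23 for H2-K1 and 0.95 for Rsrp1, so no call separated the conditions for these genes.

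Hnrnpu, for an abundant nuclear RNA-binding protein, changed sides between conditions. It stood at 10.21, 10.26, 9.99 and 10.01 in stressed libraries, 0.23 higher in KO-labelled cells (SE 0.05, limma adjusted p = 0.12). In normal libraries it stood at 9.82, 9.96 and 9.85 in KO-labelled and at 10.16, 10.22 and 10.18 in WT-labelled cells, which gave -0.31 (limma adjusted p = 0.0022). The groups were apart in both conditions, in opposite directions (limma adjusted p of the difference 0.016). Among uncalled well expressed genes higher in stressed KO-labelled cells with the smallest p, Sumo3 (8.32, 8.30, 7.98 and 7.97, difference 0.34) encodes a ubiquitin-like modifier and Ssr3 (7.67, 7.75, 7.31 and 7.26, difference 0.42) a subunit of the translocon-associated complex. Tmsb4x, for the actin-binding thymosin beta-4, stood at 10.32, 10.30, 10.10 and 10.07, and its difference of 0.22 was near the 0.25 of normal HSCs.

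**Figure D5:**
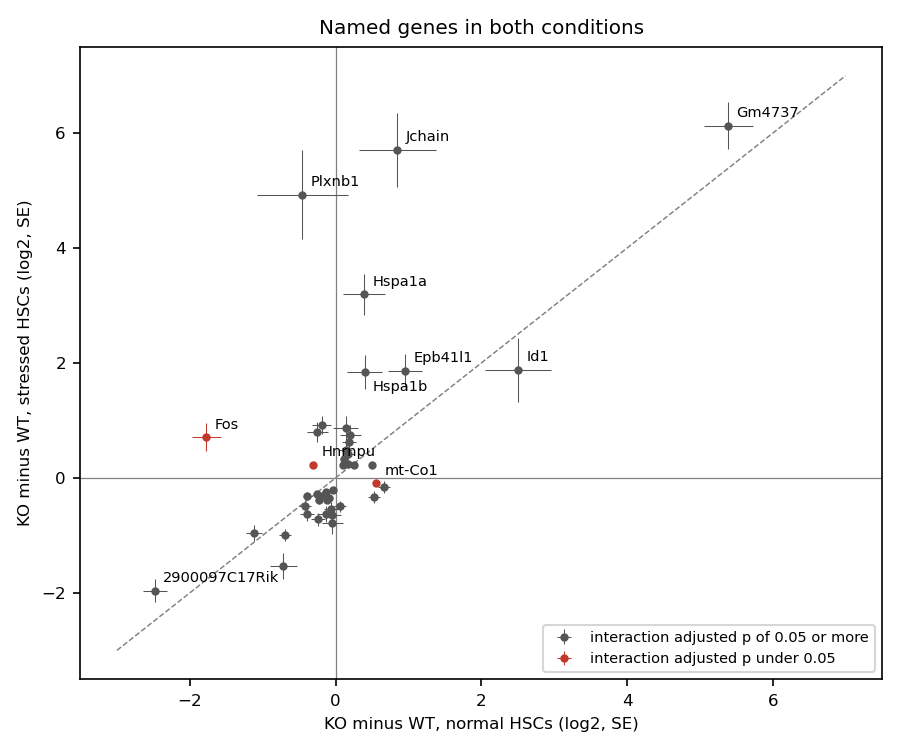
Genotype differences (KO-labelled minus WT-labelled, log2, bars are SE) of Id1, the called genes, the uncalled well expressed genes with the smallest p and those with the smallest interaction p, where both WT-labelled stressed libraries had reads, normal HSCs on the horizontal and stressed HSCs on the vertical axis. The dashed line marks equal differences. Gm4737 and 2900097C17Rik lie near that line, and Fos, Hnrnpu and mt-Co1 (red) had a called difference between conditions.

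Most called genes with a mean below 4 had values below 0 in both libraries of 1 genotype, the exceptions being Epb41l1 and Hspa1a. Of 302 kept genes with values above 0 in both libraries of 1 genotype and in none of the other, 10 were called. Over all 15143 genes tested 22 were called (0.145%). The 302 genes were kept only through the genotype where they were high, so their count of calls is no result about them. Tcaf2 stood at 1.86 and 1.28 in KO-labelled libraries, and Glis3 at 0.51 and 1.58, Npnt at 0.65 and 0.50 and Bace2 at 0.24 and 0.42, and none of the 4 had a read in WT A or WT B. Rprm, linked to cell cycle arrest, showed the reverse, with 0.44 and 0.47 in WT-labelled libraries and 0 reads in both KO-labelled ones. Plxnb1, a semaphorin receptor gene, stood at 1.72, 2.53, -2.97 and -2.65. In normal HSCs Tcaf2, Glis3, Npnt, Bace2 and Rprm had differences of 0.00, -0.10, -1.62, 0.35 and -0.10. The number of genes with 0 reads was 1733 and 2016 in the KO-labelled and 2198 and 2007 in the WT-labelled stressed libraries.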

How the data were processed

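Total RNA of the sorted HSCs was sequenced. Reads were aligned with Bowtie2 to mm10 and counted with featureCounts, per the submitters' processing notes. The deposited values are log2 CPM, with limma voom named by the authors in the table's name alone. All 10 libraries share 1 distribution of values (quantile normalized), so total reads per library are not shown, and the lowest value, -5.90, stands for 0 reads. If it reflects voom's offset of 0.5 reads, 1 CPM equals about 29.9 reads. The strand used for counting is not given in the sources used here, so reads of overlapping or antisense genes cannot be told apart.

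From these values genes above 0 in at least 2 of 10 libraries (15143) were fitted with limma 3.58.1 in R 4.3.3, with 4 group means, a variance trend and 6 residual degrees of freedom. Genes below an adjusted p of 0.05 (Benjamini-Hochberg, over every gene fitted) are termed called. The fit was tested on simulated data. Letters A to C showed no pairing across the well expressed genes as a whole: 13 correlations of same-letter deviations lay between -0.03 and 0.03. The 13 are not independent, since A and B of a stressed group deviate by equal and opposite amounts. A pairing limited to few genes would not show in them. Coordinates are GENCODE vM21 (mm10), with 20199 identifiers matched, and promoter windows RefSeq (GRCm38.p6). The kept genes and the 36 gene lists were chosen with earlier results of these data known.

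Named were Id1, every called gene, the 12 higher and 12 lower uncalled well expressed genes with the smallest p and no overlap, up to 4 members per list by p and others that define a list, the 8 smallest interaction p-values and the 6 genes near Id1 with the smallest p. Variable immunoglobulin and Y-linked genes were chosen after their values were seen. Alternatives covered the libraries fitted, variance trend, filters, a pseudocount of 1 CPM, scaling, library weights, a replicate block, the threshold and leaving out each library, and gene length was added after seeing the data.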

Additional observations from a re-analysis of the deposited data

Results flagged for a closer look

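In 3 genes the genotype difference of stressed HSCs departed from that of normal HSCs by limma's test of the difference itself. For mt-Co1, a mitochondrially encoded subunit of cytochrome oxidase, stressed minus normal was -0.657 on the log2 scale (limma adjusted p = 0.00024), from a difference of -0.09 in stressed and 0.56 in normal HSCs, where the KO-labelled libraries share 1 value by rank. For Hnrnpu, an RNA-binding protein gene, it was 0.542 (limma adjusted p = 0.016). For the immediate early gene Fos it was 2.486 (limma adjusted p = 0.036), and Fos stood at 3.27, 2.59 and 3.16 in KO-labelled against 4.73, 4.88 and 4.73 in WT-labelled normal libraries.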

How the results depend on the processing

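The number of genes called between stressed genotypes, 22 (10 well expressed), rested on the spread borrowed from normal libraries. It was 0 and 0 by limma with only the 4 stressed libraries (1212 at an unadjusted p under 0.05), 11 and 4 with a replicate block, 12 with a filter at a mean above 4 and 37 at an adjusted p under 0.10. Well expressed calls were 3 with no trend and 6 with no filter. Leaving out 1 library gave 12 to 51 genes (4 to 12 well expressed): 51 without WT stressed A, 47 without WT stressed B, 26 without KO stressed A, 12 without KO stressed B, and 13, 12 and 12 without WT normal A, B and C. The cause was not tested. All 22 genes stayed called under median centring, TMM factors and library weights, and none changed sign in any alternative in which it was fitted. The deposited values already share 1 distribution, so centring and TMM factors could change little and cannot check the scaling. Medians of the well expressed genes lay between 6.035 (KO stressed A) and 6.037 (WT normal A). TMM factors lay between 0.994 (WT normal B) and 1.003 (WT stressed A). Both settings are still among the 23 alternatives counted below. H2-K1 stayed called in 21, Cep250 and 2900097C17Rik in 22, Txnip in 20, Hspa1b and Mvp in 9 and Cnbp in 10 of 23 alternatives. For H2-K1 and Cnbp the alternatives start from the same tied values, so these counts cannot check their SE.

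In normal HSCs the count of 236 was 45 with no trend, 373 with a mean above 4, 108 with the length trend removed, 400 at an adjusted p under 0.10, and 129 to 238 with 1 library left out. For the difference between conditions the count of 3 was 8 with no trend, 12 with no filter, 6 with a mean above 4, 15 with the pseudocount, 26 at an adjusted p under 0.10, and 1 to 26 with 1 library left out. With 2 libraries per genotype the median SE of well expressed genes was 0.15 and their median absolute difference 0.12.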
